A study of Mus musculus with 10 samples.

Results

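The genes described here are the ligands and receptors of the TGF-beta and activin system and their latent binding proteins. They are 10 genes chosen by name (Tgfb1, Tgfb2, Tgfb3, Inhba, Inhbb, Tgfbr1, Tgfbr2, Tgfbr3, Ltbp1 and Ltbp2), out of 55291 genes in the table. Their RNA was measured in submandibular glands of C57BL/6J mice, labelled female and aged 8 weeks, at day 7 after surgery. In the ligated group (labelled Ligation, or sialadenitis) the duct of the right gland was tied near and far from the gland, which blocks the outflow of saliva. In the sham group (labelled Sham, or control) the skin was cut and the gland was freed, without tying the duct. Each group had 5 libraries, and the design text gives 5 mice for each. All mice were unmodified, and each library is whole-gland RNA, so that in these bulk samples fewer cells of a type and less RNA per cell cannot be told apart.

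TGF-beta is secreted in a latent form, bound to its own propeptide and held in the matrix by latent TGF-beta binding proteins. Once released, a ligand joins type II and type I receptor kinases, which phosphorylate the transcription factors SMAD2 and SMAD3. Activins are dimers of the beta subunits encoded by Inhba and Inhbb and use the same SMADs through their own receptors. In salivary glands, as in other organs, the pathway is known for its part in matrix deposition after injury and in restraining inflammation.

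The libraries held between 12105739 and 17305594 assigned reads, as worked out from the steps of the values. Values are FPKM, fragments scaled to gene length and library depth, so that levels can be set side by side between genes. Sham 1 stood apart from the other sham libraries. Its summed parotid markers came to 18861 FPKM, against 237 to 985 FPKM in the other sham libraries, and its summed lymph node markers to 582 FPKM, against 5.22 to 11.3 FPKM. Parotid markers were also high in ligated 2, 3 and 5 (21744 to 45247 FPKM, against 12.9 and 58.9 FPKM in ligated 4 and 1), and lymph node markers in ligated 1, 2 and 3 (363 to 450 FPKM, against 20.1 and 21.2 FPKM in ligated 5 and 4). Mucl2, an abundant submandibular product, was the highest gene in ligated 1 and 4 and in all 5 sham libraries. The label female goes against the RNA, since the Y-linked gene Ddx3y stood at 3.58 FPKM or more in all 10 libraries and Xist at 0.0267 FPKM or less.

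Of the 10 genes, 9 were higher in ligated glands and 0 lower, and Tgfb2 was the 1 that did not pass the test. A gene was called where limma on log2(FPKM + 1) gave a Benjamini-Hochberg adjusted p below 0.05 together with a change of 1 or more in log2 units, over 11856 genes tested. By the same rule 17.1% of all tested genes were higher and 1.16% lower. All 10 genes passed the filter of 1 FPKM in at least 5 libraries. Inhba passed it with 4 ligated libraries and 1 sham library (sham 2, 1.11 FPKM), and so mainly through the group where it was high. Every ligated library lay above every sham library for 5 of the 10 (Tgfb1, Tgfbr1, Tgfbr2, Ltbp1 and Ltbp2), where the share of all tested genes was 30.2%. The median change over all tested genes was 0.53 in log2 units. When the libraries were put on a common level by median-ratio scaling, which brought that median to -0.01, 5 of the 10 were still called, namely Tgfb1, Inhba, Tgfbr2, Ltbp1 and Ltbp2 (6.84% of all tested genes were called higher and 4.2% lower). With quantile normalization the same 5 were called (background 5.81% higher and 4.29% lower). With no filter 9 were called (background 7.68% higher), and 9 by voom on reads recovered from the steps (background 27.7% higher). The calls of Tgfb3, Inhbb, Tgfbr1 and Tgfbr3 were lost under that scaling.

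**Figure D1:**
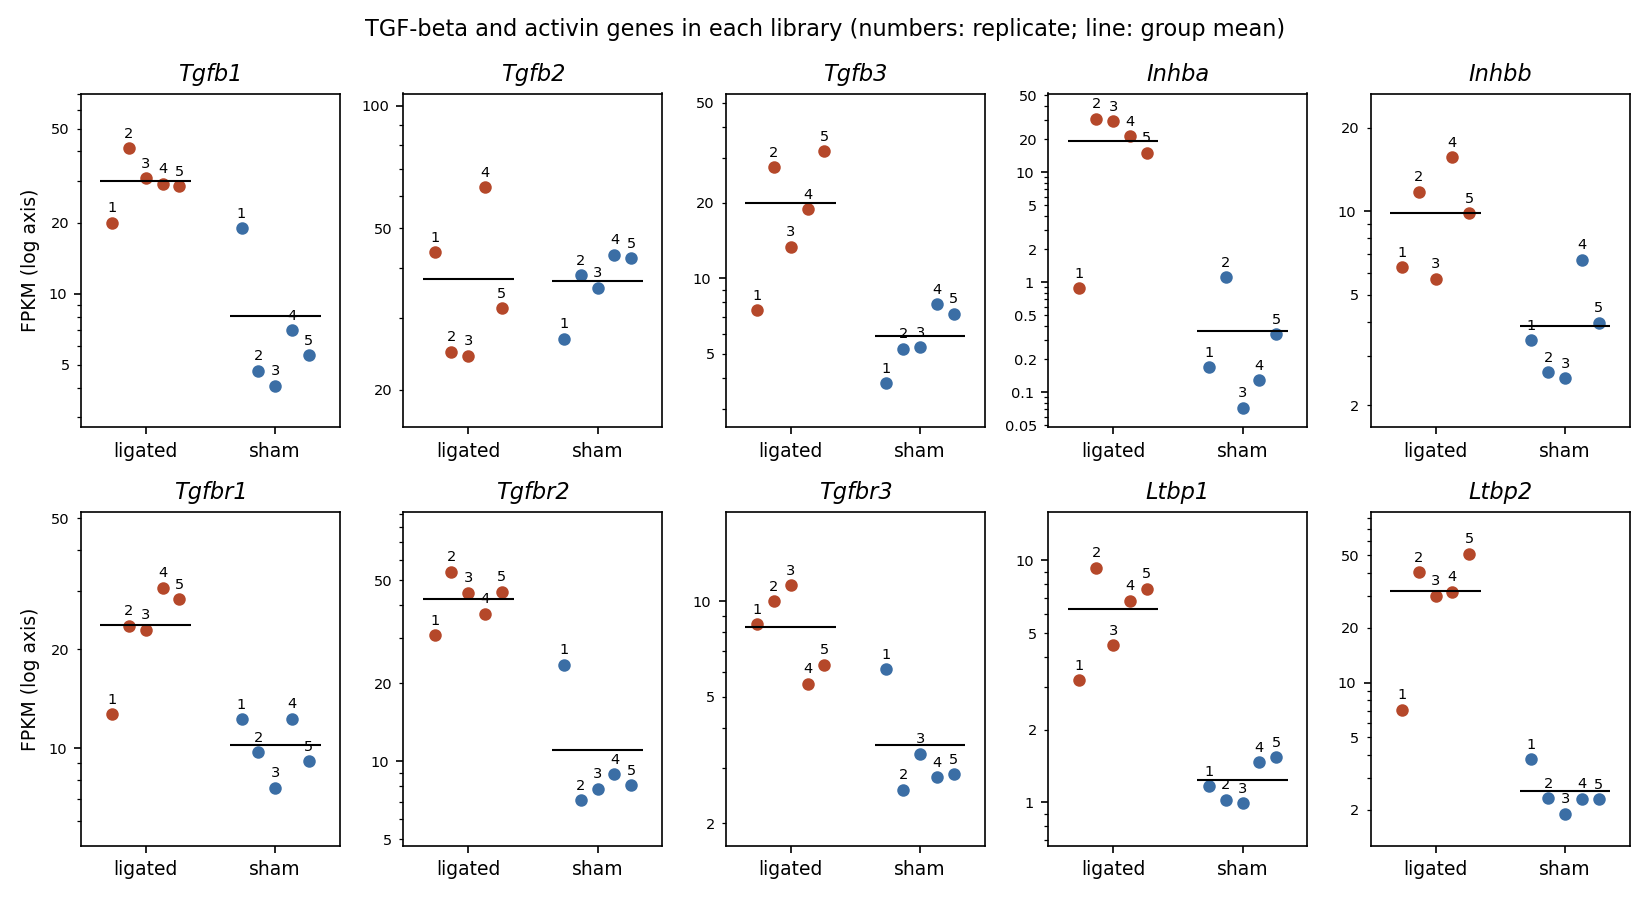
FPKM of each gene in every library, on a log axis, with ligated libraries on the left and sham libraries on the right of each panel; numbers are replicates and lines are arithmetic group means. Ligated 1 lay lowest of its group in 7 of the 10 genes, and sham 1 lay highest of its group in 4.

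Among the ligands, Tgfb1, the isoform made by many immune and stromal cells, stood at 20.0, 41.4, 30.9, 29.3 and 28.5 FPKM in ligated 1 to 5, against 19.0, 4.72, 4.09, 7.01 and 5.50 FPKM in sham 1 to 5. The groups did not overlap as deposited, but sham 1 lay close to ligated 1, and after median-ratio scaling ligated 1 (17.0 scaled FPKM) lay below sham 1 (18.9 scaled FPKM). The means were 30.0 ± 7.64 FPKM in ligated and 8.06 ± 6.20 FPKM in sham glands (SD, n = 5 each). Tgfb1 rose by 1.94 ± 0.34 on the log2(FPKM + 1) scale (SE; limma adjusted p = 0.00135) and by 2.28 without sham 1 (limma adjusted p = 2.86e-05). It was called in all 23 alternative settings, with log2 fold changes between 1.33 and 2.56.

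Tgfb3, an isoform known from mesenchyme and palate development, stood at 7.44, 27.6, 13.3, 18.8 and 32.0 FPKM in ligated 1 to 5, against 3.82, 5.23, 5.31, 7.86 and 7.21 FPKM in sham 1 to 5. Only ligated 1 fell within the sham range. Tgfb3 rose by 1.47 ± 0.34 (limma adjusted p = 0.00524), or 0.86 ± 0.34 after median-ratio scaling, where the call was lost (limma adjusted p = 0.079). Leaving out the 4 libraries with high parotid markers also ended the call (0.82 ± 0.34, limma adjusted p = 0.0795).

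Tgfb2, an isoform known from epithelia, did not pass the test. It stood at 43.6, 24.9, 24.3, 63.1 and 31.8 FPKM in ligated 1 to 5, against 26.7, 38.3, 35.7, 43.1 and 42.2 FPKM in sham 1 to 5. The means were 37.5 ± 16.3 FPKM in ligated and 37.2 ± 6.56 FPKM in sham glands (SD, n = 5 each), a log2 difference of -0.06 ± 0.26 (limma adjusted p = 0.839). The ligated libraries were split on either side of the sham range, ligated 2 and 3 below it and ligated 1 and 4 above it. The 3 lowest ligated libraries and the lowest sham library are the 4 with high parotid markers, and without those 4 the log2 difference was 0.39 ± 0.22 (limma adjusted p = 0.159). After median-ratio scaling it was -0.72 (limma adjusted p = 0.0882).

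The mix of the isoforms was also described. Tgfb2 made up 61.4, 26.5, 35.4, 56.8 and 34.4% of the summed FPKM of the 3 TGF-beta genes in ligated 1 to 5, against 53.97, 79.4, 79.1, 74.3 and 76.8% in sham 1 to 5. Such a share does not depend on how libraries are scaled. Tgfb1 held 34.9 ± 8.99% in ligated and 15.9 ± 12.6% in sham glands (SD, n = 5 each). Its share was 38.3% in sham 1 and 9.08 to 12.1% in the other sham libraries. The summed FPKM of the 3 genes was 68.5 to 111 in ligated and 45.1 to 57.9 in sham glands.

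**Figure D2:**
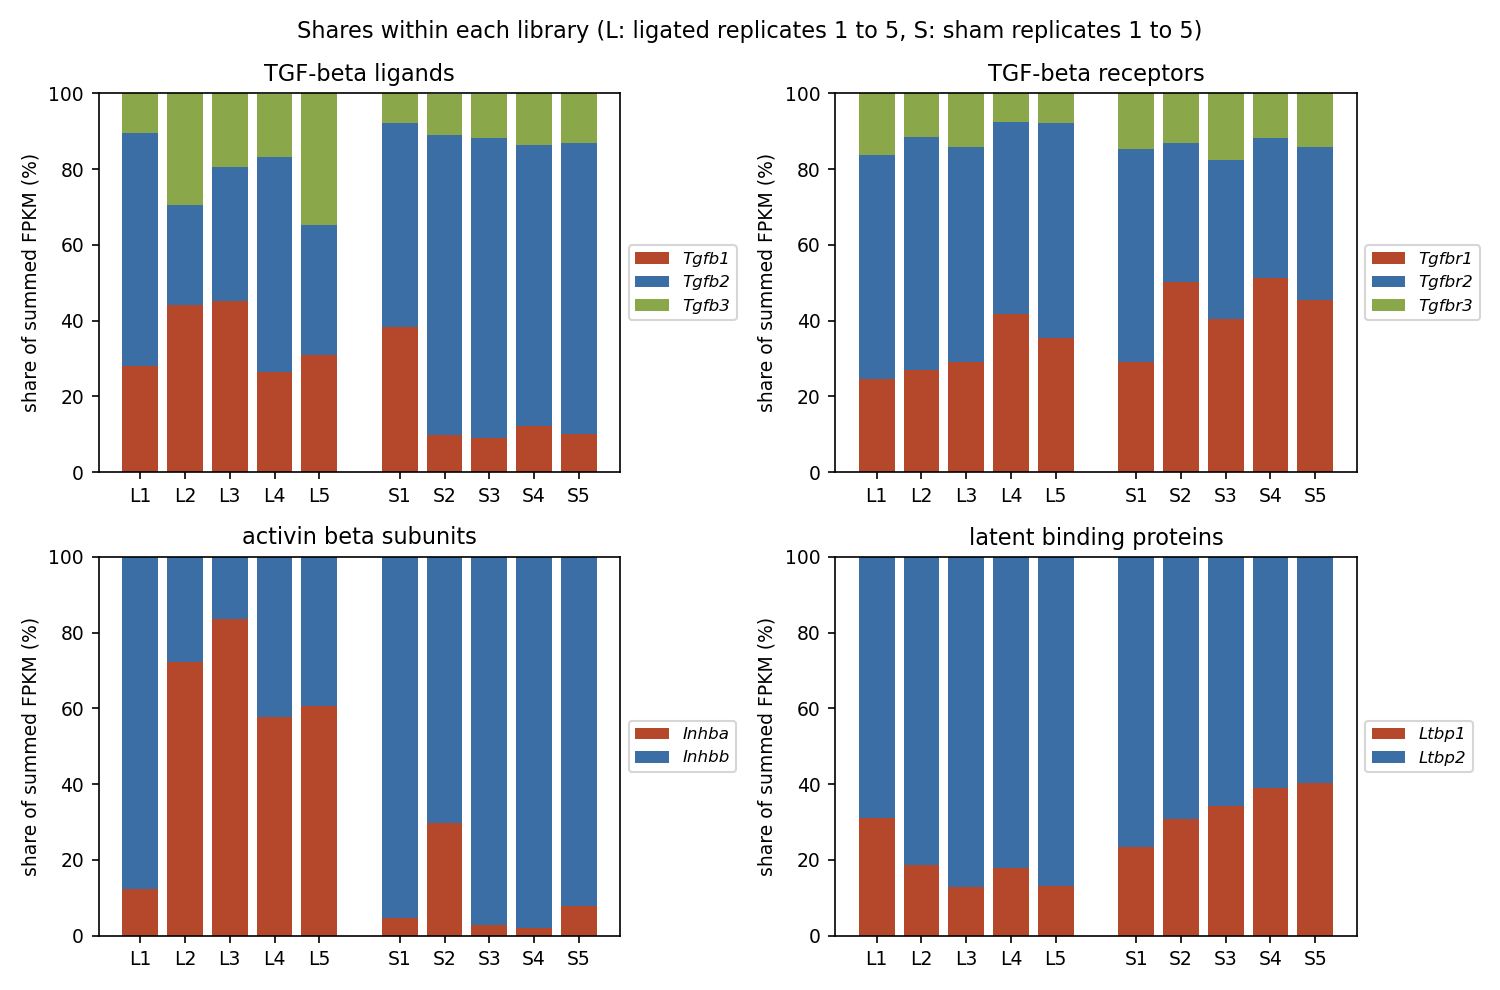
Share of each gene in the summed FPKM of its set (%), stacked per library, for the TGF-beta ligands, the receptors, the activin beta subunits and the latent binding proteins; ligated libraries are left of the sham libraries in each panel. The Inhba share was 57.6 to 83.7% in ligated 2 to 5 and 12.3% in ligated 1, against 1.90 to 29.6% in sham glands.

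Inhba, the beta A subunit of activin A, had the largest log2 change of the 10. It stood at 0.879, 30.6, 29.3, 21.2 and 15.1 FPKM in ligated 1 to 5, against 0.169, 1.11, 0.0723, 0.129 and 0.338 FPKM in sham 1 to 5. Ligated 2 to 5 lay far above every sham library, whereas ligated 1 lay below sham 2. The values rest on 79 to 2525 reads in ligated and 8 to 86 reads in sham libraries, each above the level of 3 reads used here as a floor. Inhba rose by 3.46 ± 0.67 (limma adjusted p = 0.00217), and by 3.06 after median-ratio scaling (limma adjusted p = 0.00616). Without ligated 1 it rose by 4.20 ± 0.26 (limma adjusted p = 6.33e-06). The call was lost without the 4 libraries with parotid transcripts, a fit that keeps ligated 1 and 4 as the whole ligated group (2.25 ± 0.81, limma adjusted p = 0.055; range over its alternatives 6.33e-06 to 0.055).

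Inhbb, the beta B subunit, stood at 6.28, 11.7, 5.72, 15.6 and 9.83 FPKM in ligated 1 to 5, against 3.43, 2.63, 2.50, 6.68 and 3.96 FPKM in sham 1 to 5. Sham 4 overlapped ligated 1 and 3. Inhbb rose by 1.14 ± 0.29 (limma adjusted p = 0.00748), a call lost without ligated 4 (0.97 ± 0.27) and after median-ratio scaling (0.57 ± 0.25, limma adjusted p = 0.107). Inhba held 57.3 ± 27.2% of the summed beta subunits in ligated and 9.38 ± 11.5% in sham glands (SD, n = 5 each). In sham 2 the share was 29.6%, above the 12.3% of ligated 1.

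Activin output also depends on partners outside the list. Inha, whose alpha subunit turns the beta subunits into inhibins, stood at 1.16, 0.944, 0.455, 0.189 and 1.07 FPKM in ligated 1 to 5, against 0.943, 1.12, 1.10, 1.34 and 1.84 FPKM in sham 1 to 5, and did not pass the test (-0.39 ± 0.19, limma adjusted p = 0.0928). Fst, which encodes follistatin, a secreted protein that traps activin, stood at 2.94, 10.2, 11.1, 13.1 and 13.8 FPKM in ligated 1 to 5, against 1.58, 1.83, 1.59, 2.00 and 1.97 FPKM in sham 1 to 5. It rose by 1.87 ± 0.32 (limma adjusted p = 0.00108), without overlap. Its relative Fstl3 rose by 1.68 ± 0.28 (limma adjusted p = 0.00101). Fstl3 stood at 1.28 to 6.56 FPKM in ligated and 0.142 to 0.752 FPKM in sham glands. It therefore passed the filter of 1 FPKM only through the ligated group, where it was high. In ligated 1 these trapping genes were the lowest of the ligated group, as Inhba was.

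**Figure D3:**
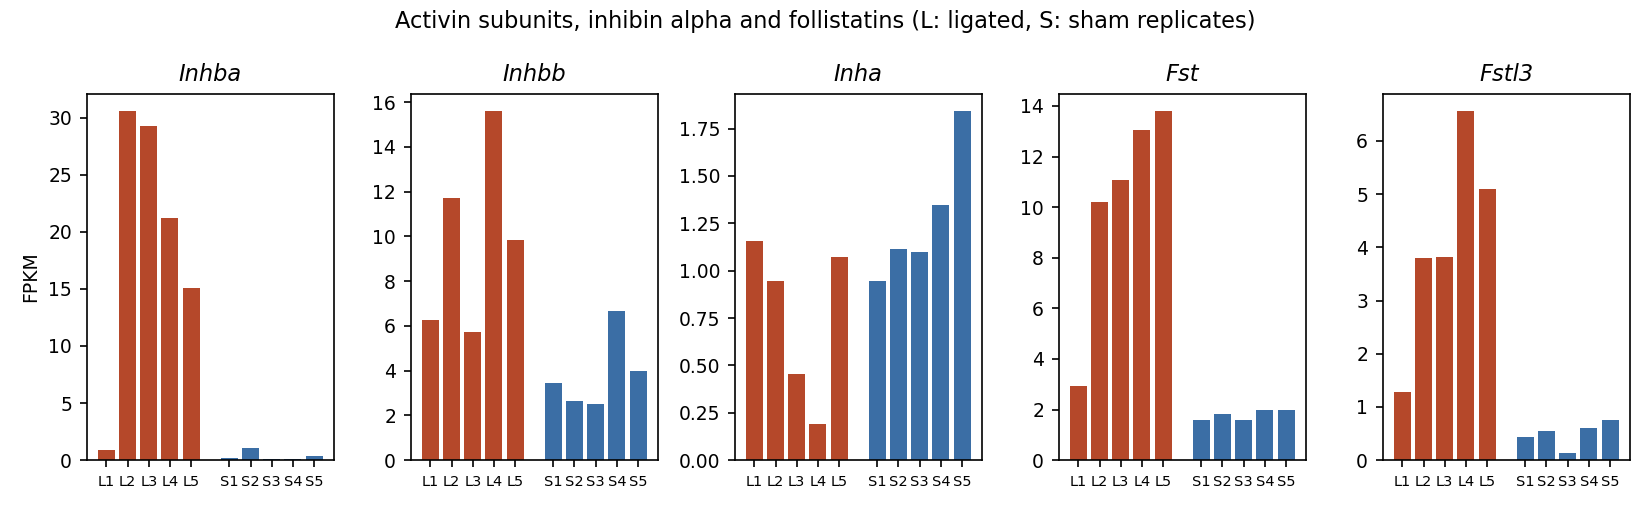
FPKM of the activin subunit genes Inhba and Inhbb, the inhibin alpha gene Inha and the follistatin genes Fst and Fstl3 in ligated (left) and sham (right) libraries. Fst reached 2.94 to 13.8 FPKM in ligated and 1.58 to 2.00 FPKM in sham glands, while Inha overlapped between the groups.

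The promoters shown here were picked because they belong to the ligand with the largest rise (Inhba), the TGF-beta isoform that rose without overlap in the values as deposited (Tgfb1) and the isoform that did not pass the test (Tgfb2). RefSeq start sites on GRCm38.p6 were found for 8 of the 10 genes. Each sequence is the 250 bases before the start, 5′ to 3′ on the gene's strand, with matches to the searched motifs in capitals.
Inhba, chr13:16011601-16011850, plus strand: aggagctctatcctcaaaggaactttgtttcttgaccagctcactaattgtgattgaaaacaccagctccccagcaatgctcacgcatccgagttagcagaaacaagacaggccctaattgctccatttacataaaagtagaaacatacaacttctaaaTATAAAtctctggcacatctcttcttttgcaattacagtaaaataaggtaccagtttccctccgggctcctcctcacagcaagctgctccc
Tgfb1, chr7:25686752-25687001, plus strand: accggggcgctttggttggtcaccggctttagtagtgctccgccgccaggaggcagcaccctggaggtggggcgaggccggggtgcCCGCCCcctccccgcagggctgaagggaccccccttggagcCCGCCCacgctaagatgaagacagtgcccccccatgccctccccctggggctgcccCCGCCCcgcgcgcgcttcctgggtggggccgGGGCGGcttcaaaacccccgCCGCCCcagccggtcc
Tgfb2, chr1:186705990-186706239, minus strand: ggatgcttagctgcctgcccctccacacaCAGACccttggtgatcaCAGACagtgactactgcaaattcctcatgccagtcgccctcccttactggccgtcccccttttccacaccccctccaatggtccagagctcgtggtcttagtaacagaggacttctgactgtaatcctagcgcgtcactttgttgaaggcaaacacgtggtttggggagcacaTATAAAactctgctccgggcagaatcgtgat
The motifs were searched on both strands. They were the TATA box TATAAA, the GC box GGGCGG, the AP-1 sites TGACTCA and TGAGTCA, the cyclic AMP element TGACGTCA and the short SMAD element CAGAC. The Inhba window had a TATAAA that began 91 bases before the start, and the Tgfb2 window one that began 31 bases before it. Of 32851 such windows in the mouse set, 12.4% held that motif. Tgfb1 had 5 GC boxes (32.7% of all windows held at least 1) and no TATAAA, and Tgfb2 had 2 CAGAC elements (42.2% of windows). No AP-1 match (4.46% of windows) and no cyclic AMP element (1.55%) lay in these 3 windows. GC content was 43.2% for Inhba, 75.2% for Tgfb1 and 53.6% for Tgfb2, beside a median of 52.4% over all windows. These are letter matches and say nothing about binding.

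Among the receptors, Tgfbr2, the type II kinase that binds the ligand first, stood at 30.7, 54.0, 44.8, 37.2 and 45.1 FPKM in ligated 1 to 5, against 23.6, 7.09, 7.85, 8.91 and 8.09 FPKM in sham 1 to 5. The groups did not overlap, and sham 1 stood far above the other sham libraries. Tgfbr2 rose by 1.96 ± 0.29 (limma adjusted p = 0.000551) and by 2.25 without sham 1. It stayed without overlap after median-ratio scaling, with 26.1 to 39.5 scaled FPKM in ligated and 9.58 to 23.5 in sham glands.

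Tgfbr1, the type I kinase that acts on the SMADs, stood at 12.7, 23.6, 22.9, 30.7 and 28.4 FPKM in ligated 1 to 5, against 12.3, 9.74, 7.59, 12.3 and 9.13 FPKM in sham 1 to 5. Ligated 1 lay just above sham 1 and 4. It rose by 1.101 ± 0.23 (limma adjusted p = 0.00293). The fold change fell just below the threshold without ligated 4 (0.996), and likewise without the 4 libraries with high parotid markers (0.98 ± 0.34, limma adjusted p = 0.0472). After median-ratio scaling it was 0.47 ± 0.19 (limma adjusted p = 0.0788), and the groups overlapped.

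Tgfbr3, which encodes betaglycan, a co-receptor that presents TGF-beta 2 and helps inhibin bind, stood at 8.45, 10.002, 11.2, 5.50 and 6.31 FPKM in ligated 1 to 5, against 6.11, 2.55, 3.31, 2.80 and 2.86 FPKM in sham 1 to 5. Its highest ligated values were in ligated 1, 2 and 3 and its highest sham value in sham 1, the 4 libraries with high lymph node markers. Tgfbr3 rose by 1.05 ± 0.23 (limma adjusted p = 0.00422), the smallest rise of the 9. It was called in 15 of 23 alternative settings. Without ligated 2, ligated 3, sham 2 or sham 4 it was 0.98, 0.94, 0.97 or 0.998, just under the fold threshold, and without the 4 libraries with high lymph node markers it was 0.83 ± 0.16 (limma adjusted p = 0.00316). Tgfbr2 held 57.0 ± 4.09% of the summed receptor FPKM in ligated and 42.4 ± 8.03% in sham glands (SD, n = 5 each), while Tgfbr1 held 31.5 ± 7.06% in ligated and 43.3 ± 8.97% in sham glands. Both shares overlapped between the groups. The Tgfbr2 share was 56.2% in sham 1, against 36.6 to 41.9% in the other sham libraries and 50.7 to 61.7% in ligated glands.

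Both latent binding protein genes rose. Ltbp2, a matrix protein that sits on elastic microfibrils and, unlike its relatives, is not known to bind latent TGF-beta, stood at 7.07, 40.4, 30.1, 31.6 and 51.0 FPKM in ligated 1 to 5, against 3.80, 2.30, 1.90, 2.30 and 2.29 FPKM in sham 1 to 5. It rose by 3.02 ± 0.42 (limma adjusted p = 0.000412) and the groups did not overlap. Its mean was 32.0 ± 16.3 FPKM in ligated and 2.52 ± 0.736 FPKM in sham glands, a ratio of 12.7.

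Ltbp1, which tethers the latent complex to fibrillin and fibronectin, stood at 3.20, 9.33, 4.47, 6.81 and 7.64 FPKM in ligated 1 to 5, against 1.16, 1.02, 0.995, 1.47 and 1.54 FPKM in sham 1 to 5. It rose by 1.64 ± 0.23 (limma adjusted p = 0.00042), also without overlap. Both genes kept that separation after median-ratio scaling, where 8.67% of all tested genes had every ligated library above every sham library. Ltbp2 held 68.9 to 87.0% of the pair in ligated and 59.7 to 76.5% in sham glands.

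**Figure D4:**
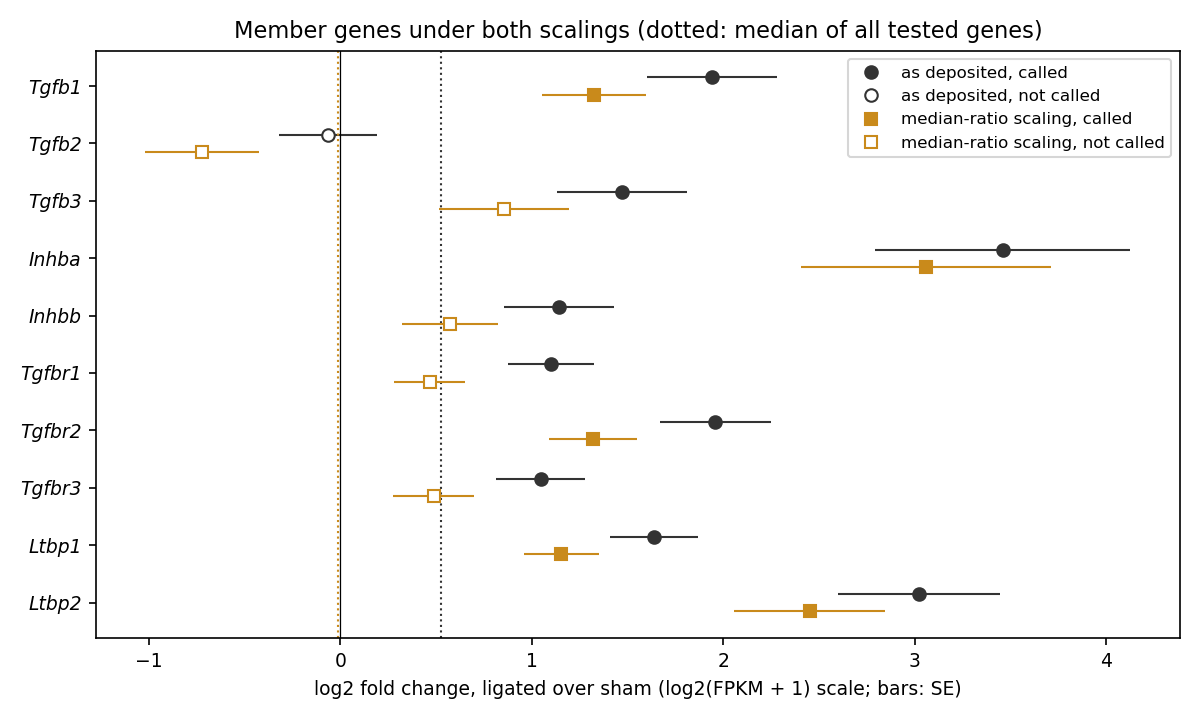
Log2 fold change of each gene, ligated over sham, with its SE, for the values as deposited (circles) and after median-ratio scaling (squares); filled symbols passed the test. The values run from -0.06 for Tgfb2 to 3.46 for Inhba as deposited, and 4 calls are lost under the second scaling.

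Ranked by level within a group, Tgfb2 was the highest of the 10 in sham glands and did not overlap Tgfbr2, the next by mean (11.1 FPKM). Inhba was the lowest in sham glands, and its range overlapped that of Ltbp1, its neighbour (1.24 FPKM). In ligated glands Tgfbr2 came first at 42.4 FPKM, followed by Tgfb2, Ltbp2, Tgfb1, Tgfbr1, Tgfb3, Inhba, Inhbb, Tgfbr3 and Ltbp1. Each of these neighbours overlapped the next.

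The genes lie on several chromosomes of GRCm38, and their positions and exon lengths were taken here from GENCODE M21. Tgfb1 (ENSMUSG00000002603.15) spans 25687002 to 25705077 on chromosome 7 and Inhba (ENSMUSG00000041324.14) 16011851 to 16031621 on chromosome 13. Tgfbr2 (ENSMUSG00000032440.13) spans 116084293 to 116175360 on chromosome 9 and Ltbp2 (ENSMUSG00000002020.15) 84783212 to 84876532 on chromosome 12. Exons of Tgfb2, Tgfb3 and Ltbp2 overlap annotated genes on the opposite strand, of which the highest value was 0.914 FPKM. Tgfbr3 shares 297 exon bases with a gene model on its own strand (0.125 FPKM at most). Whether counting used strand is not given in the sources used here.

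Marker RNA of several cell types also differed between the groups, in both directions. All 8 fibroblast markers were higher in ligated glands, with sums of 933 to 4263 FPKM in ligated and 124 to 220.3 FPKM in sham glands. Of these markers, Col1a1 and Col3a1 are also counted below among the genes known to respond to TGF-beta, and Dcn among the extracellular inhibitors. These rises are therefore not separate observations. In ligated 2, Col1a1 stood at 2238 FPKM and Col3a1 at 1428 FPKM, within the sum of 4263 FPKM. All 9 macrophage markers were higher, with sums of 1172 to 2027 FPKM in ligated and 161 to 570.1 FPKM in sham glands, the top sham value being sham 1. Of 6 endothelial markers 5 were higher (50.2 to 81.1 FPKM in ligated and 14.6 to 39.99 FPKM in sham glands). Acinar markers were lower in 6 of 8 (6926 to 60894 FPKM in ligated and 125631 to 267690 FPKM in sham glands). Adipocyte sums were 237 to 887 FPKM in ligated and 1.20 to 18.0 FPKM in sham glands, and skeletal muscle sums 27.3 to 670 FPKM in ligated and 1.75 to 3.97 FPKM in sham glands, with 6 of 6 markers of each higher. All 5 mast cell markers and the 4 neutrophil markers tested were higher, with mast cell sums of 19.7 to 49.4 FPKM in ligated and 4.31 to 11.7 FPKM in sham glands, and neutrophil sums of 21.5 to 146 FPKM in ligated and 0.411 to 34.1 FPKM in sham glands. Of the 8 tubule and duct markers 2 were higher and 5 lower, and of the 5 myoepithelial markers tested 0 were called. At 0 in some library were the adipocyte markers Adipoq, Cfd, Cidec, Plin1 and Lep and the muscle markers Atp2a1, Myh4, Tnnt3 and Mylpf. The B cell markers Ms4a1, Cd79a and Cd79b and the neutrophil markers S100a8 and S100a9 were also at 0 in some. Adipocyte, muscle and neutrophil sums were low in the sham libraries other than sham 1 (6.66, 3.97 and 3.09 FPKM at most). Many of these markers could thus pass the filter of 1 FPKM only with the ligated libraries. That favours calls as higher, so these counts are weak evidence. Marker calls were made only on the values as deposited, where 17.1% of all tested genes were higher and 1.16% lower. The part of these cell types in the rises of the 10 genes was not tested. With parotid and lymph node sums as covariates, 8 of the 10 genes were called higher, all but Tgfb2 and Tgfbr3 (0.69 ± 0.14, limma adjusted p = 0.00264). Over all 11856 tested genes the same fit called 1719 higher and 142 lower.

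The pathway around the 10 genes was described with 6 lists of other genes, 96 in all, of which 77 were tested. By limma 56 of these were higher and 0 lower, beside 17.1% and 1.16% of all tested genes. Median-ratio scaling gave 36 higher and 0 lower, beside 6.84% and 4.2% of all tested genes. Among genes of latency, storage and activation 16 of 18 tested were higher, 9 after scaling. Lrrc32, which displays latent TGF-beta on cell surfaces, stood at 38.6 ± 19.2 FPKM in ligated and 2.03 ± 0.606 FPKM in sham glands (SD, n = 5 each) and rose by 3.51 ± 0.41. Mmp14 (3.29 ± 0.34), Mmp2 (3.26 ± 0.34) and the microfibril gene Fbn1 (2.90 ± 0.34) rose as well, with limma adjusted p between 0.000117 and 0.000198. The median of the list was 1.03 above that of all genes. Furin, a protease that cuts the propeptide, and Itgb8, an activating integrin, were not called (0.83 ± 0.24 and 0.70 ± 0.16), both under the fold threshold.

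Extracellular inhibitors were higher in 6 of 7 tested, 4 after scaling. Both counts include Fstl3, which passed the filter only through the ligated group. Besides the follistatins, the matrix proteoglycans Bgn (2.44 ± 0.28) and Fmod (2.19 ± 0.37), which bind TGF-beta, rose, and Chrd, an inhibitor of the related BMPs, did not pass the test (0.37 ± 0.18, limma adjusted p = 0.0933). Other receptors and co-receptors were higher in 3 of 7, 1 after scaling, beside 17.1% of all tested genes and 6.84% after scaling. Eng (1.65 ± 0.21), an endothelial co-receptor, rose, as did the type I receptor genes Acvr1 (1.34 ± 0.24) and Acvrl1 (1.302 ± 0.16). The last 2 were under the fold threshold after median-ratio scaling (0.77 and 0.73). The activin receptor genes Acvr1b (0.996 ± 0.17) and Acvr2a (0.55 ± 0.13) were not called. Their groups did not overlap, as held for 31.3% of all tested genes. The change of Acvr2a was only 0.02 above the median of all tested genes, and that of Acvr1b 0.47 above it.

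Among SMADs and intracellular regulators 9 of 15 were higher, 2 after scaling, beside 17.1% of all tested genes and 6.84% after scaling. Pmepa1, a feedback inhibitor that TGF-beta itself induces, stood at 59.7 ± 30.1 FPKM in ligated and 5.95 ± 1.61 FPKM in sham glands (SD, n = 5 each) and rose by 2.95 ± 0.40 (limma adjusted p = 0.000378). The co-repressor genes Tgif1 (1.57 ± 0.20) and Skil (1.53 ± 0.27) and Smad3 (1.32 ± 0.21) rose, but Skil (0.97) and Smad3 (0.75) were under the fold threshold after scaling. Smad2 (0.76 ± 0.14, limma adjusted p = 0.00145) and the shared partner Smad4 (0.83 ± 0.14, limma adjusted p = 0.00124) were not called. Both were under the fold threshold, and lay 0.24 and 0.31 above the median of all tested genes. Their groups did not overlap, as held for 31.3% of all tested genes. Of 6 other ligands tested 1 was higher, Gdf10 (1.40 ± 0.22), near the share of 17.1% of all tested genes. After scaling 0 were higher (Gdf10 0.88), beside 6.84% of all tested genes.

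Genes known to respond to TGF-beta were higher in 21 of 24 tested, 20 after scaling, with a median 2.20 above that of all genes. Timp1, an inhibitor of matrix proteases, stood at 39.2, 347, 198, 219.9 and 360.003 FPKM in ligated 1 to 5, against 5.92, 14.2, 3.38, 2.23 and 3.87 FPKM in sham 1 to 5. The groups did not overlap, with ligated 1 the lowest of its group and sham 2 the highest of its own. Timp1 rose by 4.97 ± 0.60 (limma adjusted p = 0.000212). The collagen gene Col1a1 (4.55 ± 0.45) and the matrix gene Tnc (4.53 ± 0.69) rose as well. The 3 genes of the list not called were Acta2 (0.19 ± 0.23), Bhlhe40 (0.31 ± 0.18) and Snai2 (0.54 ± 0.24). Acta2, the actin of myofibroblasts that the myoepithelial cells of the gland also make, stood at 188 ± 51.5 FPKM in ligated and 162 ± 34.1 FPKM in sham glands (SD, n = 5 each; limma adjusted p = 0.469).

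**Figure D5:**
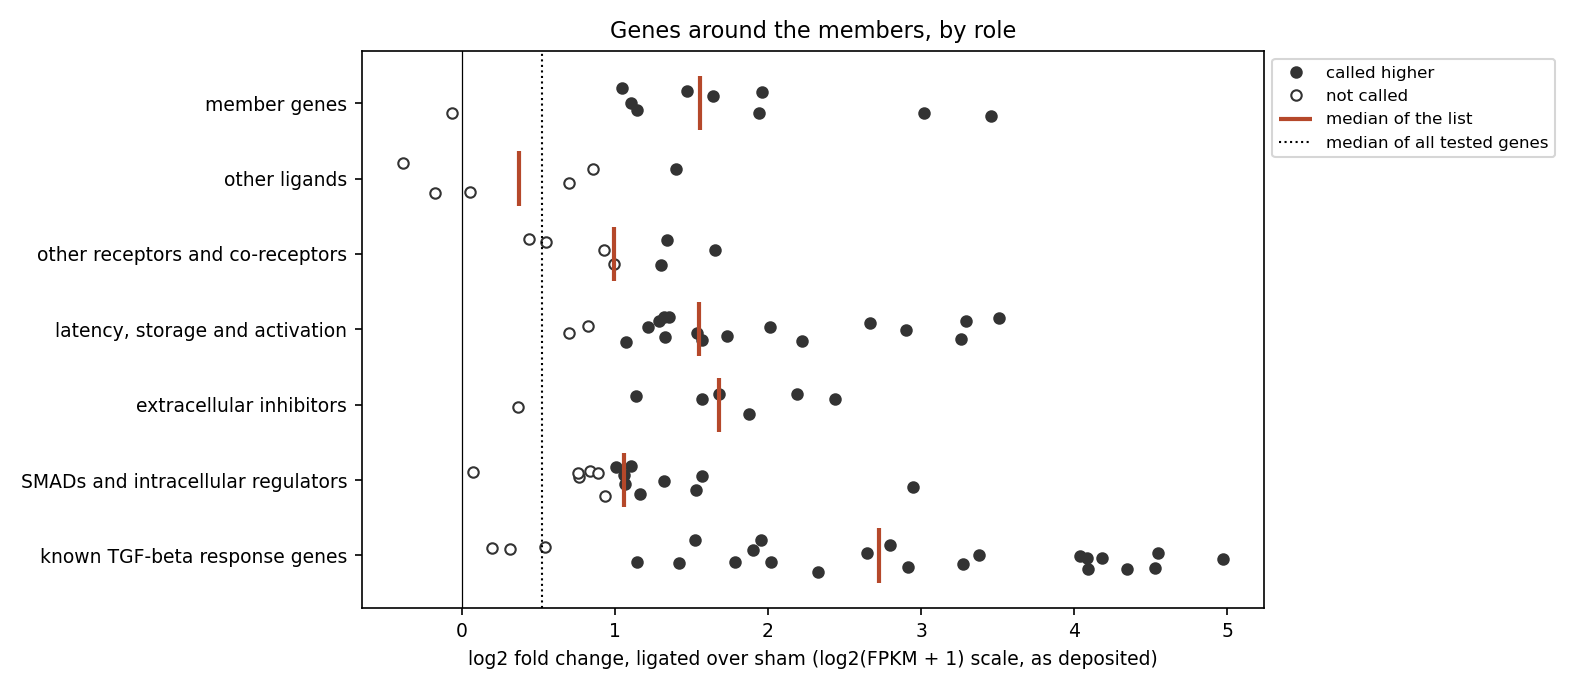
Log2 fold change, ligated over sham, of each tested gene in the 10-gene list and in the 6 lists around it, as deposited; filled points were called higher, bars are list medians and the dotted line is the median of all tested genes (0.53). The response genes have the highest list median, 2.72, and the other ligands the lowest, 0.37.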

How the data were processed

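The deposited table gives FPKM made by the authors for 10 libraries, 5 ligated and 5 sham, with 1 column each and 0 columns left over. Per the submitters' processing notes the build was GRCm38 (mm10). The aligner, counter and annotation were not given in the sources used here. FPKM times exon length in GENCODE M21 fell on whole multiples of 1 step per library (98.3% to 98.4% of values below 200 reads, tolerance 0.01), which gave the depth. FPKM are not counts, so limma 3.58.1 in R 4.3.3 was run on log2(FPKM + 1), without covariates, with a mean-variance trend, two-sided, and Benjamini-Hochberg adjustment over the 11856 genes that reached 1 FPKM in 5 or more libraries. The pseudocount understates changes of low genes. The fit was tested on simulated data. The labels give no batch, 0 pairs of libraries were identical, and p-values measure the spread between mice. The members and lists were chosen with earlier results of these data known. From each list the text names up to 4 called genes with the largest change, or the gene with the highest mean. Inha, Smad2, Smad4 and genes named as not called were chosen after their values were seen. Of the genes this rule names, 1 is not reported here.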

Additional observations from a re-analysis of the deposited data

Results flagged for a closer look

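Each of the 10 genes was checked in each group for a library far from the other 4 (Dixon's test, critical ratio 0.71), which gave 20 checks. In 5 of them a library stood apart, and these came from sham 1 and sham 2. Chance flags about 1 in 20 such groups where values are normal and groups independent. Here the values were FPKM without a log, and 4 of the flags came from sham 1, so that rate cannot measure an excess. Sham 1 was far above the other sham libraries in 4 genes. It held 19.0 FPKM of Tgfb1 (4.09 to 7.01 in the others), 23.6 FPKM of Tgfbr2 (7.09 to 8.91), 6.11 FPKM of Tgfbr3 (2.55 to 3.31) and 3.80 FPKM of Ltbp2 (1.90 to 2.30). The same library had the highest sham sums of parotid, lymph node, macrophage, endothelial, neutrophil, adipocyte and mast cell markers and the lowest of acinar, tubule and myoepithelial markers, whose part in these values was not tested. Sham 2 held 1.11 FPKM of Inhba, against 0.0723 to 0.338 FPKM in the other sham libraries.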

How the results depend on the processing

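Of 228 results for the 10 genes under 23 alternative settings, 203 kept direction and side of the threshold, 19 lost the call and 6 turned sign. The count of the 10 genes called higher was 5 after median-ratio scaling and 5 with quantile normalization, 6 without the 4 libraries with parotid transcripts, and 7 to 9 when each library was left out in turn. Of all 11856 tested genes, 2166 were higher without the 4 libraries with parotid transcripts, and 1725 to 2732 when each library was left out. That of the surrounding lists was 36 and 32 under these scalings. The count over all genes was 811 higher and 498 lower with median-ratio scaling and 689 higher and 509 lower with quantile normalization (62.0% and 57.5% of calls higher, against 93.6% as deposited). It was 6675 higher and 78 lower with libraries rescaled to the same sum (98.8% higher), 1166 higher with a filter at 5 FPKM, which tests fewer genes, and 3247 higher with voom on recovered reads. Without the 4 libraries with parotid transcripts 79 were lower, and without sham 1 and ligated 1, a setting chosen after seeing the data, 228 were lower. Tgfb2 turned positive at the same sum (0.49), with the covariates (0.13) and without the parotid (0.39) or lymph node (0.17) libraries, and ran from -0.27 to 0.066 leaving out each library (0.058 without ligated 2 and 0.066 without ligated 3). The cause was not tested. With the replicate block the counts were 9 of the 10 genes, 56 list genes and 2082 higher and 121 lower over all genes. Same-numbered libraries correlated in their deviations at -0.38 to 0.58, and 2 of 5 ligated libraries matched their own number best. Every best match was sham 1 or sham 5, so these values cannot decide whether same-numbered libraries were paired. Depth limits Inhba in sham glands (8 to 86 reads).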

Other observations

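Several genes of the surrounding lists were too low to be tested, and those given here were chosen after their values were seen. Nog, which encodes the BMP antagonist noggin, was listed at 0 in all 5 sham libraries and at 0.0839 to 1.92 FPKM in ligated libraries. Bmpr1b, a type I BMP receptor gene, stood at 0.239 to 4.56 FPKM in ligated glands and at 0.0805 FPKM or less in sham glands. Acvr1c, a type I receptor gene known from fat cells, stood at 0.0666 to 0.899 FPKM in ligated glands and at 0.0333 FPKM or less in sham glands. On 1 kb of exon, 3 reads correspond to 0.209 to 0.232 FPKM in ligated libraries, so the lowest of these values can rest on few reads. Grem1, another BMP antagonist, went with neither group. It stood at 1.85, 1.75, 2.46, 0.0673 and 0.109 FPKM in ligated 1 to 5, against 4.10 FPKM in sham 1 and 0 in sham 2 to 5, so that its 4 highest libraries were the 4 with high lymph node markers.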
